A study of Caenorhabditis elegans with 6 samples.

Results

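The heterochronic genes of Caenorhabditis elegans were examined in messenger RNA of A-class motor neurons from wild-type and unc-37 mutant larvae. They were taken as every probe set whose only gene in the platform's probe-to-gene table was lep-5, lin-14, lin-28, lin-29, lin-41, lin-42, lin-46, hbl-1, daf-12 or dre-1. All 10 genes were found among the 17118 genes that a probe set named alone, and they had 19 of the 22548 probe sets. One more probe set paired lin-29 with 2 gene identifiers and was left out. A-class motor neurons are the DA and VA cells of the ventral cord, cholinergic neurons used for moving backward.

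The study compared 3 arrays of the strain N2 with 3 arrays of unc-37(e262), all from larvae of the L2 stage. The protein UNC-37 is a Groucho-type corepressor that works with the homeodomain protein UNC-4. Both genotypes made FLAG-marked PAB-1, a poly(A)-binding protein, in DA and VA cells from the promoter of unc-4. The RNA bound to it was isolated and amplified by 2 rounds of in vitro transcription. The labels name no clone, cross or rescue, and do not say whether the 2 genotypes were grown together. They call the arrays biological replicates. Where these did not come from separate cultures, the p-values measure only the spread between these samples.

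Heterochronic genes set the order in which larval cells take on the fates of successive stages. In the hypodermis, LIN-14, LIN-28, HBL-1 and LIN-41 hold early or larval fates, and the microRNAs lin-4 and let-7 and its relatives turn them down as larvae grow. LIN-29 then switches cells to adult fates. Many of these genes are also made in neurons, where lin-14 and hbl-1 are known for timing the rewiring of GABA motor neurons.

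In unc-37 arrays 1 of the 10 genes changed at its brightest probe set: lep-5, a long noncoding RNA, rose 7.75-fold. Of the other 4 genes that act late or run the timing, lin-29, dre-1 and daf-12 lay higher in unc-37 by 1.41-fold to 1.81-fold and lin-42 was at 0.01 on the log2 scale, and none of these was called. The early genes lin-14, lin-28, hbl-1 and lin-41 and the gene lin-46, which acts downstream of lin-28, showed changes between -0.04 and 0.21. None of these 5 was called by limma, nor had any an unadjusted p below 0.05. A difference between early and late genes was not tested. A call here is a limma p below 0.05 after Benjamini-Hochberg adjustment across the 22548 probe sets. Every change is unc-37 minus wild type with n = 3 arrays per group. Over all 17118 genes at their brightest probe set, 6.75% were called, 3.94% higher and 2.81% lower, so 1 of 10 is near the background share. In 3 of the 10 genes, lep-5, lin-29 and dre-1, wild-type and unc-37 values did not overlap, which was so for 26.4% of all genes, and the same 3 were among the 21.4% of all genes with an unadjusted p below 0.05. The median change of the 10 genes was 0.19, against -0.01 over all genes. Of 19 probe sets, 1 was called, against 6.42% of all probe sets. For any single gene the smallest p that exact permutation of 3 against 3 arrays allows is 0.1.

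**Figure D1:**
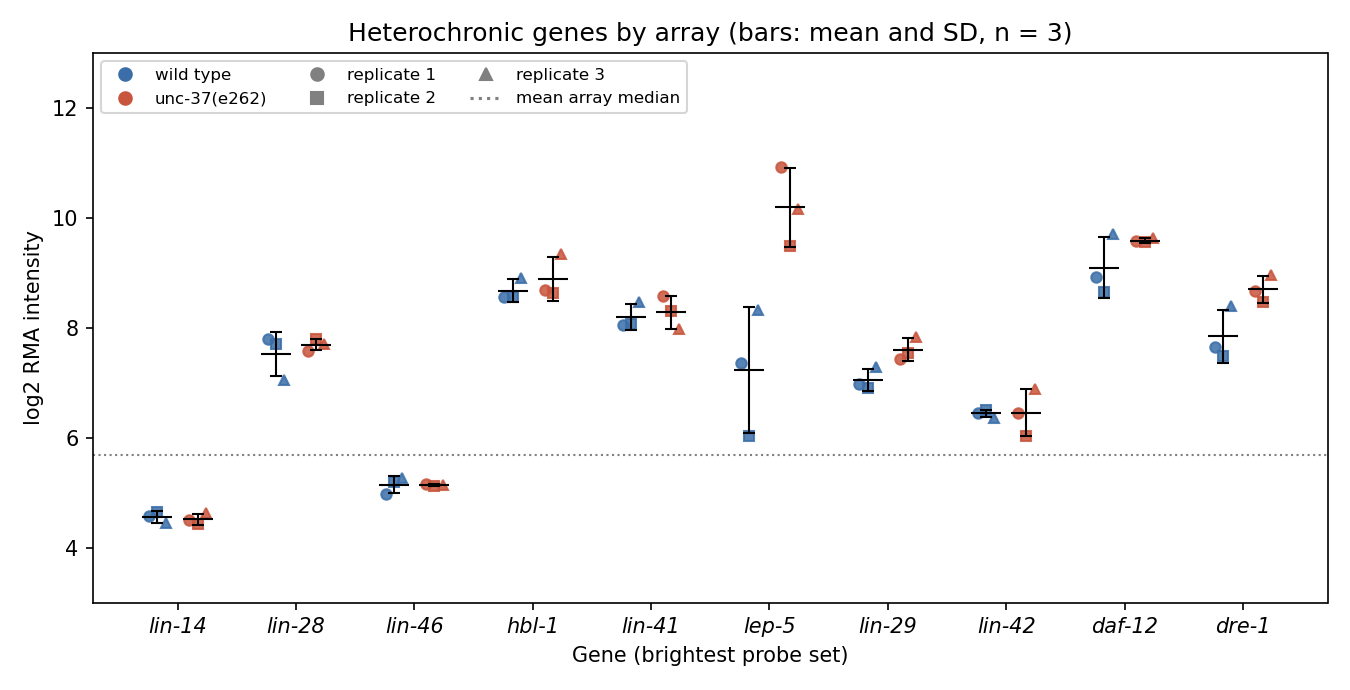
Log2 RMA intensity of the brightest probe set of each heterochronic gene on each array, wild type in blue and unc-37(e262) in red, with the marker shape giving the replicate number and bars the mean and SD of 3 arrays. The lep-5 arrays stand apart by genotype (7.24 against 10.19), lin-29 and dre-1 separate by less than 0.2, and lin-14 and lin-46 lie under the dotted line, the mean of the array medians.

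A pull-down of tagged PAB-1 enriches the RNA of chosen cells but does not purify it, and the arrays held transcripts of other tissues. Median intensities were 50.1 to 52.4 on the linear scale, and log2 values correlated across probe sets at r = 0.984 to 0.991 for arrays of one genotype and 0.964 to 0.981 for arrays of different genotypes. No list of markers particular to the A class was used, and 6 cholinergic motor neuron genes, among them unc-4, stood for it. The mean of 6 cholinergic motor neuron genes lay between 7.26 and 7.75 in wild type and between 8.73 and 8.91 in unc-37 on the log2 scale, and all 6 were called higher. Of 17 pan-neuronal genes 9 were called higher and none lower, and their mean went from 7.44 to 7.56 up to 7.99 to 8.00. Of 14 hypodermis and seam genes none was called higher and 3 lower, but 7 lay above 0 and 7 below, with a median change of -0.03. At an unadjusted p below 0.05, 3 were higher and 4 lower. Their mean spanned 8.82 to 9.07 in wild type and 8.55 to 8.85 in unc-37. Farthest below 0 were dpy-5 at -1.60, not called by limma (adjusted p = 0.0727), and the collagen gene col-12 at -1.14, called lower. In such bulk samples more cells of a type and more RNA per cell cannot be told apart.

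The noncoding RNA lep-5 is known for lowering LIN-28 and so letting juvenile cells mature in the male tail tip and in the nervous system. Its single probe set read intensities of 164, 65.4 and 320 in wild-type replicates 1, 2 and 3, and of 1937, 722 and 1139 in unc-37 replicates 1, 2 and 3. The lowest unc-37 array lay above the highest wild-type array by 1.17 on the log2 scale, so the groups did not overlap, and both groups were spread widely. The mean log2 level was 7.24 ± 1.15 (SD, n = 3) for wild type against 10.19 ± 0.71 for unc-37, with a log2 change of 2.95 ± 0.55 (SE, 95% interval 1.70 to 4.21, adjusted p = 0.0178). By the absolute size of its change this probe set ranked 11 among 22548, and no probe set rose by more, the larger changes being falls. In the RefSeq gene table no other gene, coding or noncoding, overlaps lep-5. Leaving out replicate 1 of wild type (adjusted p = 0.0626) or of unc-37 (0.0739) ended the call.

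Pan-neuronal and cholinergic motor neuron markers moved on the same arrays. The median change was 0.61 for the 17 pan-neuronal genes and 1.11 for the 6 cholinergic motor neuron genes, among them unc-4, whose promoter drove the tag, at 2.74 ± 0.31. Scaling the arrays to the mean of the pan-neuronal genes took 0.51 off every change and left lep-5 at 2.44. Its adjusted p under that scaling cannot be set beside the main one, since 18658 probe sets were then called. No scaling to the cholinergic motor neuron markers was run, and the part of cell enrichment in the lep-5 rise was not tested.

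The genes with symbols whose 6 array values followed lep-5 most closely, among 10387 searched, were mec-9 (Pearson r = 0.997), spe-15 (0.995) and nosr-1 (0.992). mec-9 encodes a secreted protein needed for touch sensation and spe-15 a myosin of class VI. Their own changes were far smaller, at 0.42, 0.56 and 0.54, and spe-15 was called (adjusted p = 0.0294) while mec-9 (0.0576) and nosr-1 (0.0538) were not. The likeness is over 6 arrays that share the genotype split and is given as a description.

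lin-28 encodes the RNA-binding protein LIN-28, which blocks the maturation of let-7 and which lep-5 is known for lowering. The arrays measured the lin-28 transcript and give no level of the protein. The brightest probe set of lin-28 read 7.80, 7.71 and 7.06 in wild-type replicates 1 to 3. It read 7.58, 7.79 and 7.70 in unc-37 on the log2 scale. The groups overlapped, and the lowest of the 6 values was that of wild-type replicate 3. The change was 0.17 (95% interval -0.25 to 0.60, adjusted p = 0.668), and it was -0.06 without wild-type replicate 3. The other 2 probe sets of lin-28, of the kinds _x_at and _s_at that can bind related transcripts, stayed under the median of each array and changed by 0.02 and 0.14. In the RefSeq table the protein-coding gene F02E9.1 overlaps lin-28. lep-2, a Makorin gene that works with lep-5 on LIN-28, was under the array median throughout (means 4.43 for wild type, 4.54 for unc-37) and not called (0.11, adjusted p = 0.600).

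lin-14 encodes a nuclear factor that keeps cells in the fates of the earliest larval stage, and lin-4 turns it down soon after hatching. Its only probe set read 4.58, 4.66 and 4.44 in wild type and 4.50, 4.42 and 4.63 in unc-37. These values overlapped and lay under the array median on all 6 arrays, so a transcript that is low or absent cannot be told from background here, since the table holds no detection call. The change was -0.04 (95% interval -0.27 to 0.19, adjusted p = 0.864). lin-46, a gephyrin-like gene that acts downstream of lin-28, was also below the array median in both of its probe sets on all 6 arrays. Its changes were -0.0042 and -0.12, with adjusted p = 0.989 and 0.748.

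hbl-1 encodes the zinc finger protein related to Hunchback, and it was well above the array median at its brightest probe set. This read 8.56, 8.56 and 8.91 in wild type and 8.68, 8.64 and 9.35 in unc-37. The ranges overlapped, with replicate 3 the highest array in each group. The change was 0.21 (95% interval -0.23 to 0.66, adjusted p = 0.605), while the dimmer probe set gave -0.23 (0.344). Over the 6 arrays the 2 probe sets correlated at r = -0.37, so they did not report the same pattern, and the dimmer one lay under the array median throughout.

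lin-41 encodes a TRIM-NHL RNA-binding protein, a direct target of let-7 that holds back lin-29. Its brighter probe set read 8.05, 8.07 and 8.48 in wild type and 8.57, 8.31 and 7.97 in unc-37, with unc-37 values on both sides of the wild-type ones. The change was 0.08 (95% interval -0.31 to 0.48, adjusted p = 0.840). The dimmer one, under the array median, gave -0.14 (0.395), and its groups did not overlap, with the unc-37 arrays lower. That was the case for 25.9% of all probe sets.

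Among the genes that act late or run the timing, lin-29 had the smallest p after lep-5. It encodes the zinc finger factor that starts the switch to adult fates in the hypodermis. It read 6.97, 6.91 and 7.28 in wild-type replicates 1 to 3 and 7.44, 7.54 and 7.83 in unc-37. The groups did not overlap, with a gap of 0.16 between the highest wild-type and the lowest unc-37 array. The change was 0.55 ± 0.14 (SE, 95% interval 0.23 to 0.87), a fold of 1.46, with adjusted p = 0.0554. The call turned on the setting: adjusted p was 0.0285 with wild-type replicate 3 left out and 0.192 with replicate 2 left out. Scaling to the pan-neuronal genes left a change of 0.04. In the RefSeq table hmg-12 overlaps lin-29.

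dre-1 encodes an F-box protein, the part of an SCF ubiquitin ligase that picks its substrates, and BLMP-1 is one of these. Its brighter probe set read 7.65, 7.49 and 8.40 in wild type and 8.67, 8.47 and 8.95 in unc-37. The other read 7.06, 6.85 and 7.92 in wild type and 8.33, 7.99 and 8.06 in unc-37. In both probe sets wild-type replicate 3 was the highest of its group and came within 0.08 of the lowest unc-37 array, without overlap. The changes were close to each other, 0.86 ± 0.23 (adjusted p = 0.0685) and 0.85 ± 0.25 (0.0910), and the probe sets correlated at r = 0.95 over the 6 arrays. Without wild-type replicate 3 they were 1.13 and 1.17 and both were called (adjusted p = 0.00620 and 0.00406). With any other array left out neither was called, and limma's adjusted p reached 0.220 and 0.268. Scaled to pan-neuronal genes, the changes were 0.34 and 0.34.

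daf-12 encodes a nuclear hormone receptor that binds dafachronic acid and sets both stage progression and the choice of dauer arrest. Its brightest probe set read 8.92, 8.65 and 9.71 in wild type and 9.57, 9.55 and 9.63 in unc-37. The unc-37 arrays were nearly equal, and wild-type replicate 3 lay above all of them, so the groups overlapped. The change was 0.49 (95% interval -0.04 to 1.03, adjusted p = 0.283). Without wild-type replicate 3 it was 0.80 and called (0.00827). With any other array left out it was not called, and without wild-type replicate 2 it was 0.27 (0.642). Scaled to pan-neuronal genes it was -0.02. The other 2 probe sets lay under the array median and changed by 0.10 (0.566) and -0.15 (0.408), the last correlating with the brightest at r = -0.68 over the 6 arrays.

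lin-42 is the worm's relative of the clock gene period, and its transcript is known to cycle with the molts. One probe set read 6.45, 6.50 and 6.36 in wild type and 6.46, 6.02 and 6.88 in unc-37, with the unc-37 arrays on both sides of the wild type. It gave a change of 0.01 (95% interval -0.42 to 0.45, adjusted p = 0.978). The other read 6.49, 6.50 and 6.49 in wild type and 6.04, 6.18 and 6.44 in unc-37, lower on each unc-37 array and without overlap, with a change of -0.27 (95% interval -0.53 to -0.01, unadjusted p = 0.0411, adjusted p = 0.217). kin-20, a casein kinase 1 gene whose product works with LIN-42, was not called either (0.17, adjusted p = 0.508).

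**Figure D2:**
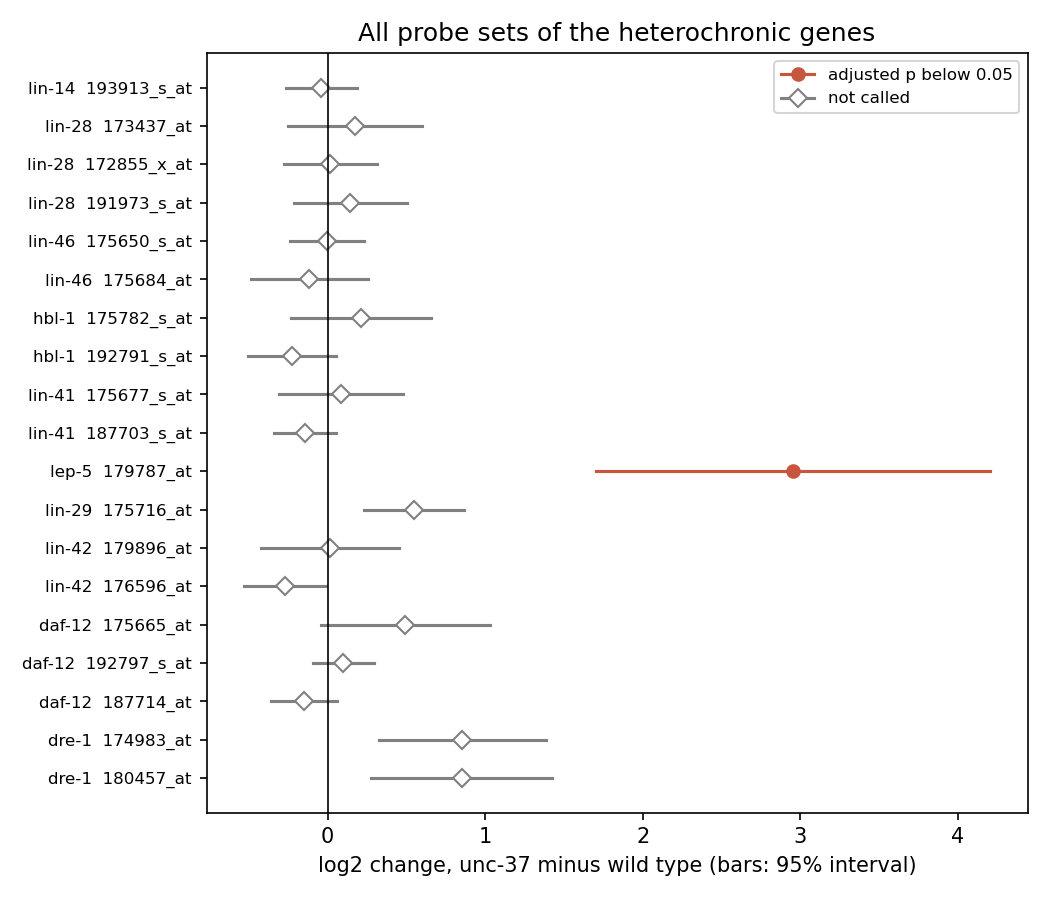
Log2 change, unc-37 minus wild type, of all 19 probe sets of the heterochronic genes, with the 95% interval of the moderated fit. Filled red marks the 1 probe set called, that of lep-5 at 2.95, and open diamonds those not called, of which lin-29 and both dre-1 probe sets have intervals wholly above 0 and the dimmer lin-42 probe set, at -0.27, has one wholly below 0.

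Of the 11 pairs of probe sets within a gene, 1 pair, that of dre-1, correlated above 0.8 over the 6 arrays, and in 5 pairs r was below 0. In each gene with more than 1 probe set except lin-42, dre-1 and lin-46, at least 1 of them lay under the array median on all 6 arrays while the brightest lay above it. Both lin-46 probe sets lay below it. When each gene was taken as the mean of its probe sets, daf-12 was at 0.15, hbl-1 at -0.01 and lin-41 at -0.03.

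Of the 5 genes that act late or run the timing, lep-5, lin-29, daf-12 and dre-1 ranked the wild-type arrays alike: at the brightest probe set each was highest in replicate 3 and lowest in replicate 2. lin-42 did not, being lowest in replicate 3. The early gene hbl-1 had the order of the 4 late genes, by little between replicates 1 and 2 (8.565 and 8.561, against 8.910 in replicate 3). lin-41 and lin-46 were also highest in replicate 3, while lin-28 and lin-14 were lowest there. Over the 6 arrays the 4 late genes correlated with each other at r = 0.82 to 0.96. lin-42 correlated with them at -0.06 to 0.23 and hbl-1 at 0.48 to 0.76. These values describe points that share the genotype split. The 4 late genes were singled out after their values were seen. The means of the neuronal marker lists did not rank the wild-type arrays so, but single genes differed. In wild-type replicates 1 to 3 unc-104 had the same order (7.80, 7.79 and 8.30) and rab-3 did not (9.62, 9.26 and 9.16). The pan-neuronal mean was 7.56 in wild-type replicate 1, 7.44 in replicate 2 and 7.45 in replicate 3, and the cholinergic mean 7.75, 7.26 and 7.29. nhr-23, a nuclear receptor gene of the molting cycle, was also highest in wild-type replicate 3, at 7.91 against 6.81 and 6.88 in the others, and 7.37 to 7.64 in unc-37. Means of body wall muscle genes (9.14 against 8.75 and 8.82) and of pharynx genes (8.29 against 7.96 and 7.97) were highest in that replicate as well. The germline mean was so by little (6.50 against 6.44 and 6.47). The hypodermis and seam mean was instead highest in replicate 2, at 9.07 against 8.82 in replicate 1 and 8.86 in replicate 3. Single genes of that list differed here too: elt-6 was highest in replicate 3 (8.15, 8.05 and 8.41) and dpy-5 lowest there (11.07, 11.93 and 10.89). The intestine mean was lowest in replicate 3 (7.17 against 7.26 and 7.39). The part of other tissues in the levels of the late genes was not tested.

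**Figure D3:**
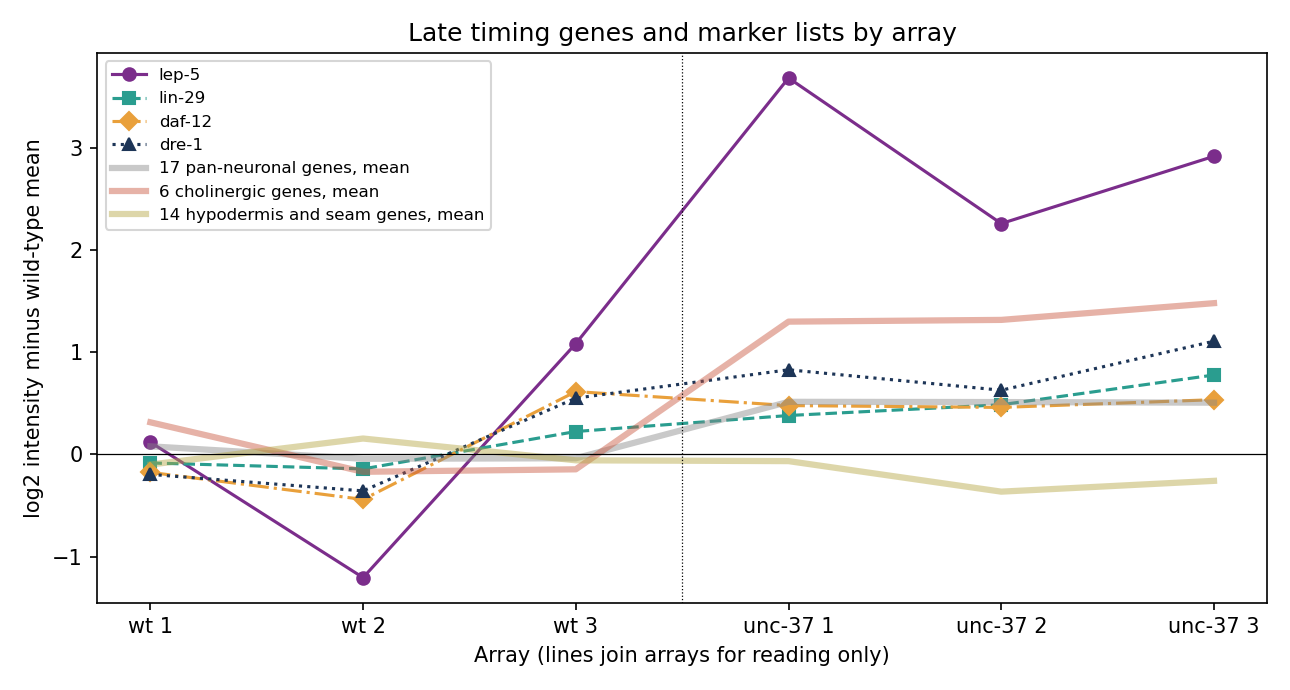
Log2 intensity minus the wild-type mean on each of the 6 arrays for the brightest probe sets of lep-5, lin-29, daf-12 and dre-1 and for the means of 3 marker lists (thick pale lines). The 4 genes peak within wild type in replicate 3, where the pan-neuronal and cholinergic means (7.45 and 7.29) do not.

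The genes known to work with the heterochronic genes were taken from a list of 33, of which 28 had a probe set of their own. The 5 without one were the microRNA genes lin-4, let-7, mir-48, mir-84 and mir-241, not analysed here. Of the 28, 2 rose and 1 fell at the brightest probe set, against 6.75% called over all genes, and the median change was 0.04. The list was chosen with earlier results of these data known. None of the 3 was called by limma once wild-type replicate 1, wild-type replicate 2 or unc-37 replicate 1 was left out. Scaling to the pan-neuronal genes, which turns any change between 0 and 0.51 below 0, that of alg-1 included, called none higher and 19 lower, and scaling to the hypodermis and seam genes, which adds 0.23, called 7 higher and none lower.

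Of the 10 RNA-silencing and RNA-binding partners 1 rose and 1 fell, with a median change of 0.02. alg-1, an Argonaute through which lin-4 and let-7 act, read 6.15, 6.13 and 6.50 in wild type and 6.76, 6.72 and 6.78 in unc-37, with no overlap. It rose by 0.49 ± 0.12 (adjusted p = 0.0450), but its other 2 probe sets gave -0.15 and -0.11 and were not called. Its close relative alg-2 had a change of -0.02 (0.962). puf-9, a Pumilio gene known for repressing hbl-1, read 9.31, 9.35 and 9.30 in wild type and 8.90, 8.56 and 8.93 in unc-37. It fell by 0.52 on the log2 scale (SE 0.11, adjusted p = 0.0344), and the dimmer probe set was at -0.19 and not called. The silencing complex genes ain-1 (0.42, 0.235) and ain-2 (-0.20, 0.364) were not called. lin-66, which lowers lin-28, was not called at its brightest probe set (0.21, 0.620), while 1 of its 2 dimmer ones was (0.46, 0.0273), with a wild-type mean of 4.29 and under the array median on all 6 arrays.

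Among partners that act as transcription factors, hormone enzymes or ubiquitin ligase subunits, 1 of 18 rose and none fell, with 5 above and 1 below 0 at an unadjusted p below 0.05. It was myrf-1, a membrane-bound transcription factor known in worms for larval progression and for the expression of lin-4. Its only probe set, of the kind _s_at, read 7.24, 6.96 and 7.74 in wild type and 8.23, 7.94 and 8.56 in unc-37. The groups did not overlap, and wild-type replicate 3 was again highest of its group. The change was 0.93 ± 0.22 (adjusted p = 0.0420), and its relative myrf-2 was at 0.16 (0.427). nhr-25, a nuclear receptor gene of molting and hypodermal fates, was lower on every unc-37 array but missed the threshold (-0.39 ± 0.10, 0.0535). The core SCF subunits that an F-box protein such as DRE-1 binds to or works with were at 0.56 for skr-1 (0.0695), 0.24 for cul-1 (0.235) and 0.33 for rbx-1 (0.125), none of them called. blmp-1, whose protein DRE-1 removes, was at 0.27 (0.294), and daf-9, which makes the DAF-12 ligand, at 0.24 (0.191).

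**Figure D4:**
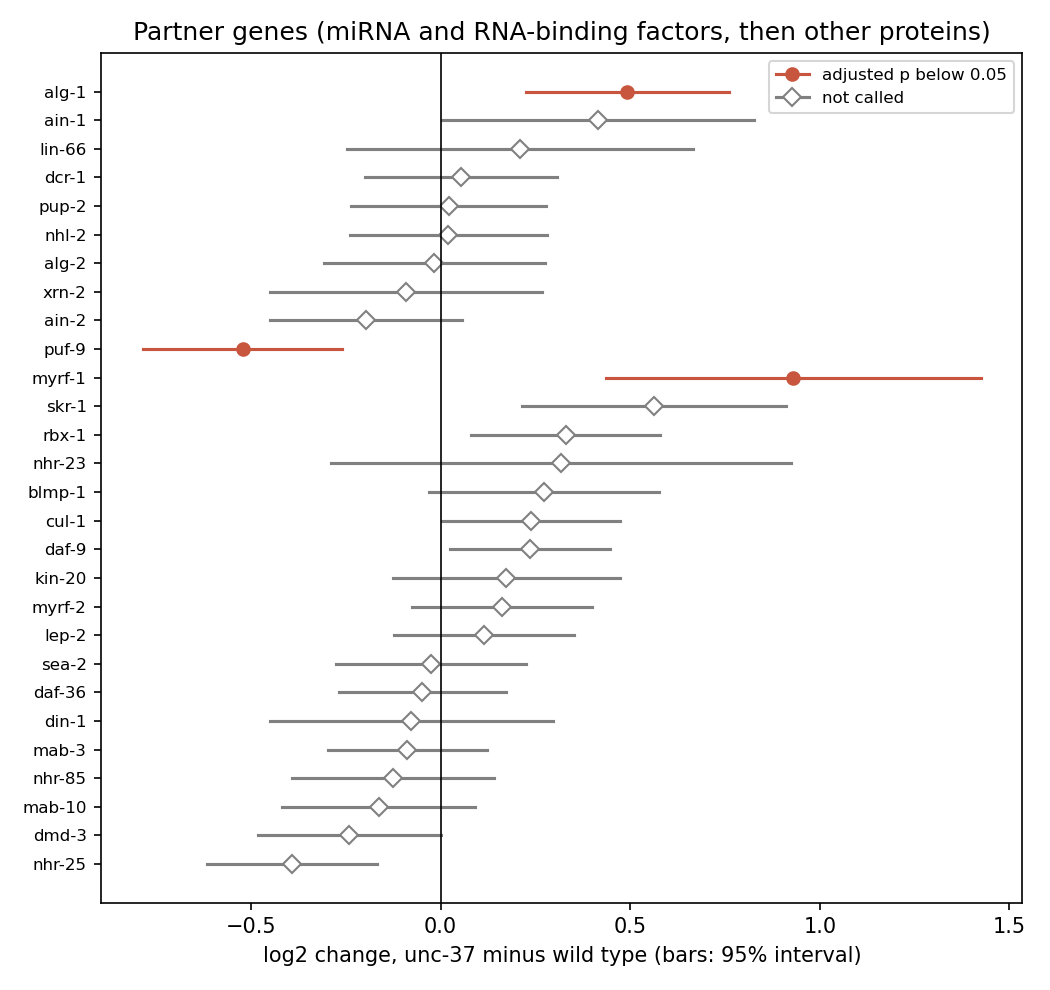
Log2 change, unc-37 minus wild type, of 28 partner genes at the brightest probe set with the 95% interval, ordered by size within the 10 RNA-silencing and RNA-binding genes and then within the 18 other proteins. The called genes, in red, are alg-1 (0.49), puf-9 (-0.52) and myrf-1 (0.93).

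Genes of the larval or adult cuticle that the timing pathway is known to switch were tested as readouts, and none of the 4 with a probe set was called by limma, though 2 had an unadjusted p below 0.05. They were on the lower side in unc-37, from -0.84 to -0.19, the last of these, bli-1, being smaller than the 0.23 that scaling to hypodermis and seam genes adds. col-17, a larval collagen gene, had a single probe set, of the kind _x_at that can bind related transcripts. It read 11.60, 12.13 and 11.53 in wild type and 11.26, 10.91 and 10.56 in unc-37. Its groups did not overlap, and the change was -0.84 ± 0.21 (adjusted p = 0.0506). col-19, the adult collagen gene that LIN-29 turns on, lay under the array median on all 6 arrays, with means of 5.49 for wild type and 5.23 for unc-37 (-0.26, adjusted p = 0.141). The hypodermis and seam genes on the same arrays were split, as given above, with dpy-7 at 0.59 (adjusted p = 0.203) and col-12 at -1.14 (0.00710). The col-12 probe set was also of the kind _x_at. The part of hypodermal RNA in the cuticle values was not tested.

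Of 5 genes tied to the timing of motor neuron fates or to lin-14, none was called by limma, and 1 had an unadjusted p below 0.05. It was unc-30, the homeodomain gene of GABA motor neurons, with means of 6.68 for wild type and 6.45 for unc-37 (-0.23, adjusted p = 0.195). oig-1, an immunoglobulin domain gene that keeps synapses from moving in those neurons, was at 6.47 and 6.93 with wide spread (0.47 ± 0.30, 0.436).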

How the data were processed

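Poly(A) RNA was measured on 6 one-colour arrays. The authors deposited 1 intensity per probe set and array. The submitters' processing notes name RMA, which corrects background, quantile normalizes the arrays and combines the probes of a set; its version is not given. The values are on a linear scale, as their range shows. The table holds no detection calls. For the main results the values were log2 transformed, with no further normalization and no filter. No column was left unmapped. Of 22548 probe sets, 20766 named 1 gene, 887 several and 895 none.

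Changes were tested two-sided, without covariates, by limma 3.58.1 (lmFit, eBayes) under R 4.3.3. The fit was tested on simulated data whose noise was independent and drawn from the fit's own spread. Effects shared by many genes of an array were not simulated. The brightest probe set, by mean log2 value, stood for its gene. RefSeq's table of assembly WBcel235 served for gene types and overlaps only. Figures used matplotlib 3.10.9.

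The heterochronic genes, the lists and the tests were chosen with earlier results of these data known. Every heterochronic gene was named, of each partner, cuticle and motor neuron list every called gene and up to 2 uncalled genes of smallest p, of marker lists the gene of smallest p where needed, and for a called heterochronic gene the 3 genes most alike by Pearson r. lep-2, kin-20, alg-2, lin-66, myrf-2, cul-1, rbx-1, blmp-1, daf-9, nhr-23, dpy-5, dpy-7, elt-6, unc-104, rab-3 and the probe sets other than the brightest were named after their values were seen. Replicate numbers were not used to pair arrays in the main fit. Deviations from the group means of same-numbered arrays correlated at -0.19, -0.14 and -0.10. With 3 arrays per group these values cannot decide whether such arrays were paired. Alternatives are an intensity trend, array weights, 2 filters on dim probe sets, 4 rescalings, a replicate block, each array left out, an offset of 16, an adjusted p below 0.1 and averaged probe sets per gene.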

Additional observations from a re-analysis of the deposited data

How the results depend on the processing

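The lep-5 change stayed above 0 under all 17 alternatives and was called under 15; with single arrays left out it ran from 2.35 to 3.50 and was lost 2 times. The count of probe sets called over all was 2234 with array weights, 2338 at an adjusted p below 0.1, 18658 scaled to pan-neuronal genes (288 higher, 18370 lower), 3341 scaled to hypodermis and seam genes (2945 higher, 396 lower) and 614 to 1677 with single arrays left out, against 1447. A second quantile normalization called 727 higher and 665 lower, against 867 and 580. Heterochronic probe sets called, 1 of 19 in the main setting, were 4 with array weights and at an adjusted p below 0.1, 2 with either filter on dim probe sets or with array medians subtracted, 13 scaled to pan-neuronal genes (1 higher, 12 lower), 5 scaled to hypodermis and seam genes (all higher) and 0 to 5 with single arrays left out. Heterochronic genes called, 1 of 10 in the main setting, were 3 with array weights and at an adjusted p below 0.1, 2 with either filter, with array medians subtracted or with averaged probe sets per gene, 5 under the pan-neuronal scaling (1 higher, 4 lower) and 4 under the hypodermal one (all higher), and 0 to 4 with single arrays left out. Partner genes called, 3 of 28, were 1 with the intensity trend and with averaged probe sets per gene, 5 with array weights and at an adjusted p below 0.1, 19 (all lower) and 7 (all higher) under those scalings, and 0 to 3 with single arrays left out. The filters and the gene means test fewer features, which alone lowers adjusted p. The pan-neuronal scaling takes 0.51 off every change and the hypodermal one adds 0.23, so signs of small changes turn by construction. The hypodermal scaling also raised limma's prior degrees of freedom from 4.33 to 154, so its calls rest on a nearly common spread.

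With the replicate number as a block, 3 heterochronic probe sets and 3 genes (lep-5, lin-29 and dre-1) and 1 partner gene were called, and 1065 probe sets over all. Deviations of same-numbered arrays from their group means correlated at r = -0.19 to -0.10, and none correlated best with its own number. With so few arrays these values cannot show whether same-numbered arrays were prepared together, and the labels do not say.

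The changes that turned sign were all uncalled in the main setting. With array weights the brightest lin-46 probe set was at 0.029 and lin-42 at -0.0074. A second quantile normalization gave lin-46 0.029 and lin-41 -0.026, and subtracting array medians gave lin-46 0.024. Scaled to pan-neuronal genes, the brightest probe sets were at -0.34 for lin-28, -0.43 for lin-41, -0.30 for hbl-1, -0.50 for lin-42 and -0.020 for daf-12, and dimmer ones at -0.50 and -0.37 for lin-28 and -0.41 for daf-12. Scaled to hypodermis and seam genes, lin-46 was at 0.22 and 0.11, lin-14 at 0.19, and the dimmer probe sets of lin-41, daf-12 and hbl-1 at 0.086, 0.079 and 0.0019. With single arrays left out, the brightest probe sets ran from -0.062 to 0.31 for lin-28, -0.094 to 0.060 for lin-46, -0.10 to 0.0074 for lin-14, -0.059 to 0.24 for lin-41, -0.017 to 0.34 for hbl-1 and -0.20 to 0.23 for lin-42, and dimmer ones from -0.079 to 0.15 for lin-28 and -0.25 to 0.070 for lin-46. The cause was not tested beyond the constructions named. The number of arrays limits precision, and no detection call separates dim probe sets from background.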
